A study of Homo sapiens with 19 samples.

Results

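Binding of the oestrogen-related receptor α (ERRα) was examined near 40 genes of other nuclear receptors, among the 19794 protein-coding genes annotated on the hg19 (GRCh37) genome. The receptors were chosen by symbol, though with earlier results of these data known, and the ERR genes themselves were left out. A receptor gene was called bound in a condition when the centre of a deposited ERRα peak lay within 20 kb of any annotated transcription start of the gene. The data are chromatin immunoprecipitation sequencing (ChIP-seq) peak lists of the ERBB2-positive human breast cancer lines SKBr3 and BT-474. Both lines were serum-starved for 24 h and then given vehicle, 100 μM EGF or 100 μM heregulin (HRG) for 90 min. Untreated parental cells (pSKBr3) and cells resistant to the EGFR/ERBB2 inhibitor lapatinib, kept in 2 μM lapatinib (LRSKBr3), made up the remaining conditions. Of the 19 libraries, 13 were ERRα ChIPs and 6 were inputs. The SKBr3, pSKBr3 and LRSKBr3 lists each combine 2 ChIP libraries with 1 input, whereas each BT-474 list rests on 1 ChIP library. The only BT-474 input is that of vehicle-treated cells. Each condition therefore has 1 list with no spread between replicates, the lists hold no tag counts, and no change described here could be tested.

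Nuclear receptors are transcription factors, many of which bind a lipophilic ligand such as a steroid, a retinoid, a thyroid hormone, vitamin D or a fatty acid, while others are orphans with no established physiological ligand. ERRα is one of these orphans, and it binds the ERR response element (ERRE), an extended half-site that other orphan receptors can also recognise. The genes of nuclear receptors are themselves controlled by nuclear receptors, and retinoid X receptors (RXRs) serve as shared dimer partners for the thyroid hormone, retinoic acid, vitamin D, peroxisome proliferator-activated (PPAR) and liver X (LXR) receptors.

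The sequences at the centres of 8 peaks described below follow, with 201 bases of the GRCh37 plus strand in each. A centre is the midpoint of a called peak and need not be the base that ERRα bound. Capitals mark the ERRE word TCAAGGTCA or its relaxed form TNAAGGTCA, and the AP-1 words TGACTCA and TGAGTCA, each searched on both strands. AP-1 is the JUN/FOS dimer that growth factors activate. The first pair lies in introns of HNF4A and was present on growth factors and missing on vehicle in SKBr3 cells, the next 4 come from sites called in all 8 lists, NR0B2 was bound at its start in BT-474 cells, and the ESR2 window lies at a gene gained on EGF and in LRSKBr3 cells.
HNF4A, chr20:42991292-42991492: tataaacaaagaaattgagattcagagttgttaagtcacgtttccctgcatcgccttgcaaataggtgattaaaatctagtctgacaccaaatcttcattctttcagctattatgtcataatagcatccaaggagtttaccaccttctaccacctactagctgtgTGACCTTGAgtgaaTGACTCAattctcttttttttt
HNF4A, chr20:43048078-43048278: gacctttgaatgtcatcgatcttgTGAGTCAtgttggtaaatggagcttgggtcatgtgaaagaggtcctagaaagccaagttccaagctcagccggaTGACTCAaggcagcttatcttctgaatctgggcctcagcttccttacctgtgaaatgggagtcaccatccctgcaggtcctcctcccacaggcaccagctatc
VDR, chr12:48339050-48339250: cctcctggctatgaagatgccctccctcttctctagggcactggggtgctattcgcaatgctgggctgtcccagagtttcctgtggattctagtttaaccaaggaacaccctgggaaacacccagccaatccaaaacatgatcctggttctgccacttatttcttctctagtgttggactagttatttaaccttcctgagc
THRB, chr3:24533316-24533516: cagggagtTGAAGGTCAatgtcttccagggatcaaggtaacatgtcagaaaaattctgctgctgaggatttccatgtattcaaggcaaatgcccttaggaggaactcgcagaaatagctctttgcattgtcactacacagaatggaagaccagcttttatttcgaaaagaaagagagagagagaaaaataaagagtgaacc
NR3C1, chr5:142798268-142798468: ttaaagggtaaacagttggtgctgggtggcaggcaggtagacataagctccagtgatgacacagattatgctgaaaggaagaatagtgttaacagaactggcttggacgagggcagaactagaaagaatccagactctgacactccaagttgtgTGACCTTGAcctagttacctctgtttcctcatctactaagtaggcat
NR5A1, chr9:127276860-127277060: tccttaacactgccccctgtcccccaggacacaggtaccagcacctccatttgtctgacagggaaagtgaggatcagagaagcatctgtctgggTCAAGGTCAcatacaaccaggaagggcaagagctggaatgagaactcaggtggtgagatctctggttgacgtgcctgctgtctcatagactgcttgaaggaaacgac
NR0B2, chr1:27240719-27240919: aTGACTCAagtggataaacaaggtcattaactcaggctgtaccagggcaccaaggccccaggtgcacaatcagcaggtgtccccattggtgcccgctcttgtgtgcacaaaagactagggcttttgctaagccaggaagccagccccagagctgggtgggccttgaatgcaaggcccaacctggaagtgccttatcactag
ESR2, chr14:64761269-64761469: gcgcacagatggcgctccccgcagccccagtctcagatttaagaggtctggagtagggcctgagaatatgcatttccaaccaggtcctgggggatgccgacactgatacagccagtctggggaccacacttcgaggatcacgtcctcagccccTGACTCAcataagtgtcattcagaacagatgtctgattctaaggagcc
The first HNF4A window holds the ERRE word, read on the minus strand, followed a few bases later by an AP-1 word, and the second holds 2 AP-1 words. The NR3C1 window is centred on the LRSKBr3 peak and the NR5A1 window on the BT-474 HRG peak, and each holds the ERRE word. These windows were chosen because they hold it. The word lay within 100 bp of the centre of 2 of the 8 NR3C1 peaks at that site (pSKBr3 and LRSKBr3) and of 1 of the 8 lists' peaks at the NR5A1 site, and not at the strongest peak of either site. The THRB window holds the relaxed form, and the VDR window, at one of the strongest receptor peaks of the study, holds none of these words. The printed windows are not typical, since the ERRE word was present at 0.775% and an AP-1 word at 5.43% of the receptor sites.

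The lists held between 22539 peaks (pSKBr3) and 41271 peaks (BT-474 HRG). Each peak carries the authors' MACS score, taken here as a transform of its P value. Since a score depends on depth, it is given here as its percentile among the peaks of its own list. A percentile also depends on how many peaks its list holds, so percentiles set side by side from different lists are ranks within each list and do not measure a change in binding. Between 478 and 1156 peaks of a list share the score 3100, and percentiles of 98.3 to 98.9 below are this tie and have no order among them. Between 33 peaks (BT-474 EGF) and 80 peaks (LRSKBr3) of a list lay near a receptor gene, and these belonged to between 23 and 27 of the 40 receptors (57.5% to 67.5%, against 38.3% to 67.2% of all genes). The median percentile of these peaks ranged from 52.2 to 63.6, against 51.8 to 55.9 for the peaks near any protein-coding gene. Between 18.2% and 22.5% of the receptor peaks lay within 1 kb of a receptor start, against 18% to 42.1% of the peaks near any gene. As a check of the immunoprecipitated factor, the start of ESRRA, which encodes ERRα and is known to be bound by its own product, scored 3100 in 7 lists and 367 (percentile 73.9) in LRSKBr3.

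ERRα bound 14 of the 40 receptor genes (35%) in all 8 lists, and the corresponding share of all protein-coding genes was 23.4%. These constitutive targets were THRB, RARB, NR1H3, VDR, NR1I3, HNF4A, RXRB, NR2C1, NR2C2, NR2F6, NR3C1, NR4A1, NR4A3 and NR5A1. Receptor genes have more starts than other genes, with a median of 5 starts and 57.1 kb of searched sequence against 3 starts and 40.6 kb. Among the 14 constitutive targets the medians were 8 starts and 73.4 kb. With only the 5′ end of each gene as its start, 10 receptors (25%) were bound in all 8 lists against 19.3% of all genes, a smaller difference. In 11 of the 14 the same overlapping site was called in every list, which is 27.5% of the receptors against 19.7% of all genes. Of the 129 separate sites near receptors, 14 (10.9%) were of this kind, close to the 9.32% of the sites near any gene. In NR1I3, NR2C1 and NR4A3 different sites carried the call in different lists. Only NR1H4, the bile acid receptor FXR, and NR1I2, the xenobiotic receptor PXR, had no peak in any list, a share of 5% against 17.2% of all genes.

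**Figure D1:**
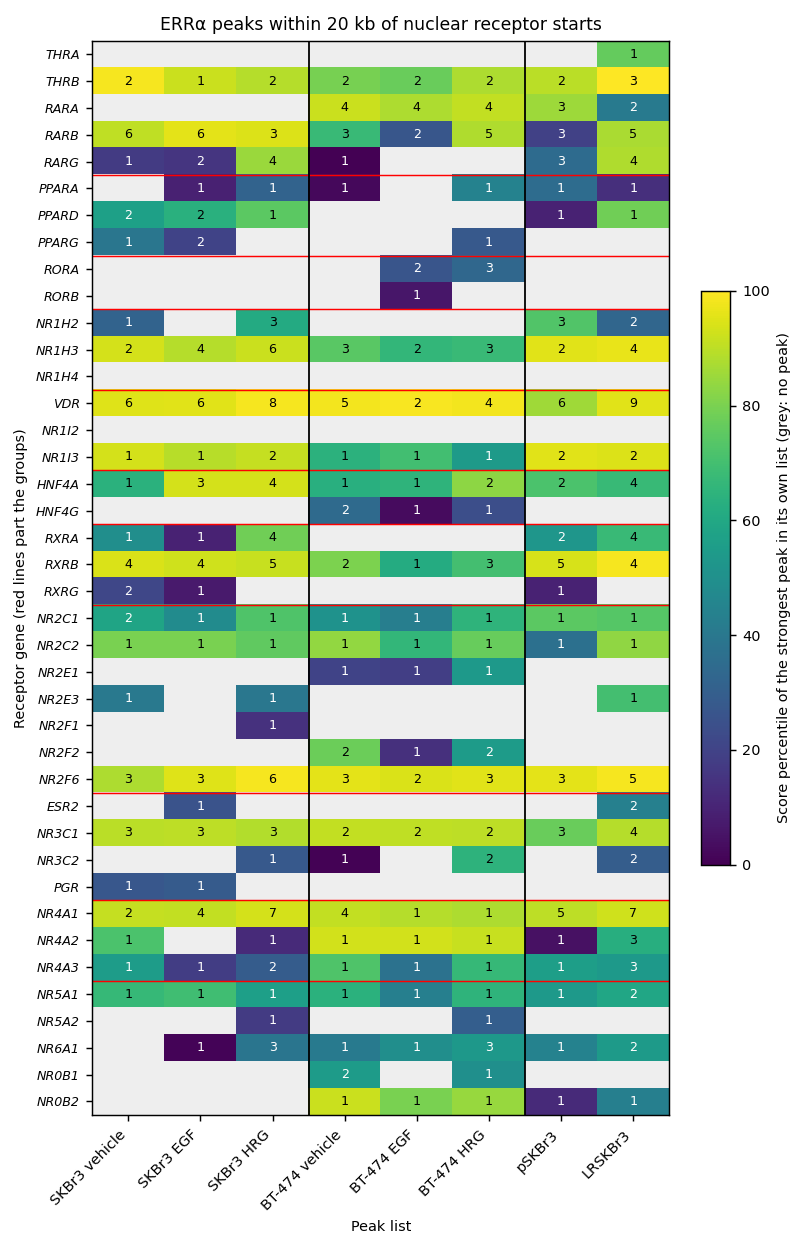
ERRα peaks near the 40 receptor genes (rows, in groups of related receptors parted by red lines) in the 8 peak lists (columns). The number is the count of peaks within 20 kb of a start, the colour is the score percentile of the strongest of them, and grey cells have no peak; NR1H4 and NR1I2 are grey throughout.

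**Figure D2:**
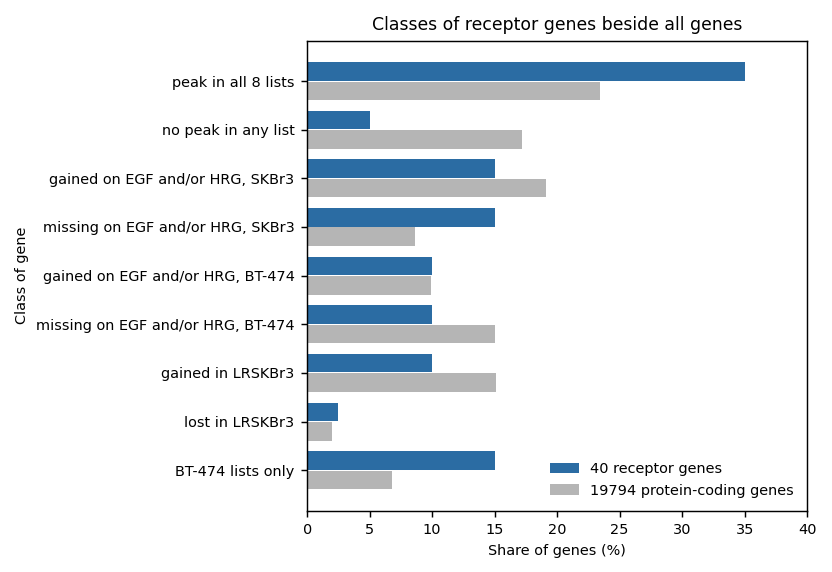
Share of genes (x axis, %) in each class (y axis) for the 40 receptor genes (blue) and the 19794 protein-coding genes (grey). The receptor bar is longer for binding in all 8 lists (35% against 23.4%) and shorter for no peak in any list (5% against 17.2%).

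VDR, the receptor for active vitamin D, carried the largest number of peaks over the 8 lists, namely 6 on vehicle, 6 on EGF and 8 on HRG in SKBr3, 5, 2 and 4 in BT-474, 6 in pSKBr3 and 9 in LRSKBr3. Its strongest peak lay upstream, 1.6 kb to 2.4 kb before the first start, in every list. The percentile of this upstream peak was 95.1, 95.5 and 98.6 in the SKBr3 lists, 98.3, 98.9 and 98.4 in the BT-474 lists, 85.8 in pSKBr3 and 95.7 in LRSKBr3. The lowest value was thus that of parental cells, and no list lacked the peak. A further VDR site, in an intron 7.8 kb to 8.1 kb downstream of an internal start, was also called in all 8 lists but ranked lower, with percentiles from 3.4 to 68.0. An intronic VDR site 8.6 kb to 8.7 kb from a start was called in the 5 SKBr3-derived lists at percentiles of 78.2 to 84.6 and in none of the BT-474 lists.

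NR2F6, an orphan receptor of the COUP-TF family that acts mainly as a repressor, had a peak at its start in all 8 lists. The percentile of this promoter peak was 87.8 on vehicle, 95.1 on EGF and 98.6 on HRG in SKBr3. In BT-474 it was 95.9, 94.3 and 95.7, in pSKBr3 95.8 and in LRSKBr3 98.7. The SKBr3 vehicle list gave the lowest rank. A second NR2F6 site, in an intron 4.2 kb to 4.4 kb downstream, was likewise shared by all lists.

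NR3C1 encodes the glucocorticoid receptor. The region of its first starts was bound in all lists, at percentiles of 89.6, 90.2 and 80.0 in SKBr3, 87.5, 81.8 and 90.0 in BT-474, 64.7 in pSKBr3 and 88.7 in LRSKBr3. An NR3C1 intron held a second shared site 13.3 kb to 13.5 kb from the nearest start, with percentiles of 77.0 to 91.0, and the window printed above comes from the LRSKBr3 peak of this site. A cluster of downstream NR3C1 starts was bound in the 5 SKBr3-derived lists (percentiles 39.9 to 54.4) and in no BT-474 list.

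THRB, the thyroid hormone receptor β, was bound in an intron 2.8 kb to 3.7 kb downstream of a start in every list. The percentiles of this THRB peak were 98.6, 92.1 and 88.7 in SKBr3, 79.5, 77.0 and 87.5 in BT-474, and 89.8 in pSKBr3. In LRSKBr3 its score of 3225 put it at percentile 100.0. The BT-474 values were all below those of the SKBr3-derived lists.

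NR4A1, the immediate early receptor NUR77, met the rule in all lists through a peak 18.2 kb to 18.9 kb downstream of its nearest start. That peak ranked between 87.8 and 93.5, but the starts of ATG101 or SMIM41 lay closer to it. Within 5 kb of a start of NR4A1 itself, no peak was called on vehicle in SKBr3, 2 were called on EGF and 4 on HRG, and in BT-474 there were 3 on vehicle and none on EGF or HRG. The constitutive call thus rests on a distal site, and the sites inside the gene differed between lists.

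**Figure D3:**
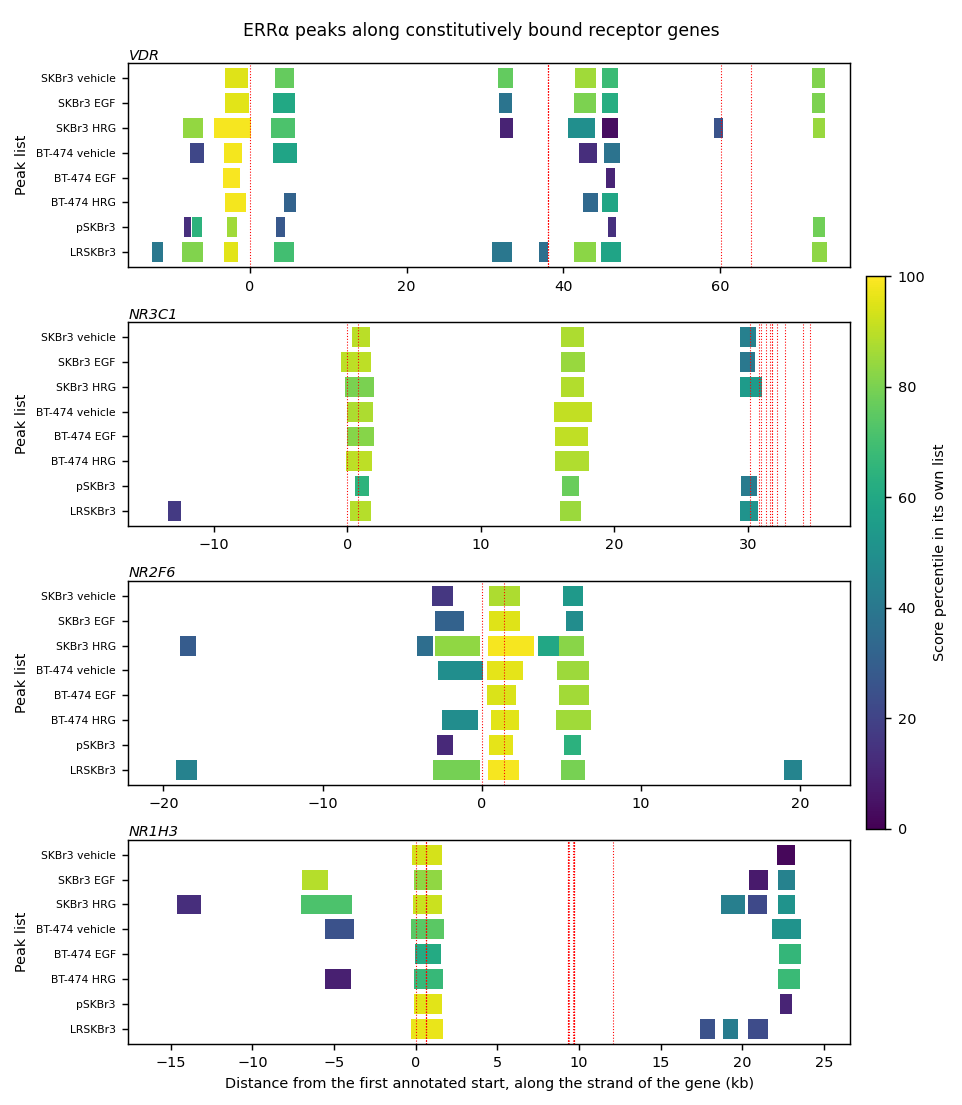
Peaks (bars) along VDR, NR3C1, NR2F6 and NR1H3 in the 8 lists (y axis), in kb from the first annotated start along the strand of the gene (x axis). Dotted lines are annotated starts and colour is the score percentile within the list; columns of bars filled in all 8 rows are the sites shared by all lists.

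The other constitutive targets varied more in rank. NR1H3 (LXRα, the oxysterol receptor) had a shared promoter peak at percentiles of 93.7, 83.5 and 92.1 in SKBr3, 74.3, 60.9 and 67.0 in BT-474, 95.7 in pSKBr3 and 96.6 in LRSKBr3. RARB, a retinoic acid receptor, was bound 0.2 kb to 0.6 kb before a start at 90.6, 95.8 and 94.7 in SKBr3 and at 67.7, 26.7 and 88.1 in BT-474. The pSKBr3 list ranked this RARB site lowest, at percentile 19.2, against 83.6 at the same site in LRSKBr3. No RARB peak in pSKBr3 stood higher. The strongest LRSKBr3 peak of RARB, at 87.3, lay at another site, which had no pSKBr3 peak. NR2C2, the testicular receptor TR4, had 1 peak in each list, in an intron 13.3 kb to 13.5 kb from a start, at percentiles of 36.8 to 83.7. NR5A1 (SF-1, a regulator of steroidogenic genes) was bound 7.3 kb to 7.6 kb upstream, at 43.3 to 69.4. RXRB and NR1I3 (the xenobiotic receptor CAR) were called in all 8 lists, but every one of their sites had a nearer start of another gene. At the strongest RXRB peak of each list, which stood at percentiles of 91.7 to 98.7 in the SKBr3-derived lists and of 61.4 to 80.4 in BT-474, this was SLC39A7, and at the strongest NR1I3 peak it was TOMM40L in the SKBr3-derived lists and AL590714.1 in BT-474.

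In SKBr3 cells, 6 receptor genes without a vehicle peak had a peak on EGF and/or HRG, which is 15% of the receptors against 19.1% of all genes. They were PPARA, NR2F1, ESR2, NR3C2, NR5A2 and NR6A1, and their gained peaks were weak, with none above percentile 38.9. PPARA, which senses fatty acids, was gained in an intron at percentile 9.3 on EGF and 31.9 on HRG. NR6A1 (GCNF, an orphan repressor of germ cell and stem cell genes) was gained 0.6 kb upstream of its start at 0.8 on EGF and 26.9 on HRG. These were the only receptors gained on both factors (5%, against 5.84% of all genes). The strongest peak of the class, at percentile 38.9, lay near NR6A1 on HRG, but OLFML2A had a closer start. When every list was reduced to the size of the smallest, none of the 6 remained gained and only RARG was (2.5%, against 15.8% of all genes). With peaks of a score of at least 100 alone the gained receptors were RARG, NR1H2 and NR6A1 (7.5% against 17.8%). The share of receptors was the higher one with 1 start per gene (10 receptors, 25% against 20.1%), within 10 kb of a start (9, 22.5% against 19.8%) and where no gene had a nearer start (8, 20% against 19.6%).

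ESR2, the oestrogen receptor β, was gained on EGF alone, 0.3 kb upstream of an internal start, at percentile 25.4. NR3C2 (the mineralocorticoid receptor) was gained on HRG alone, at its start, at 27.8. NR5A2 (LRH-1) and NR2F1 (COUP-TFI) were also gained on HRG alone, at 17.3 and 14.4. PPARA, NR3C2 and NR6A1 were bound in vehicle-treated BT-474 cells, at percentiles of 2.3, 0.5 and 40.7, whereas ESR2, NR5A2 and NR2F1 were not.

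Separate sites were also induced at receptors that already had a peak elsewhere. Of the 86 receptor sites in the SKBr3 lists, 42 (48.8%) were present on either growth factor and missing on vehicle, against 48.1% of the sites near any gene. They lay near 22 receptors (55%, against 48.3% of all genes), all of which except the 6 named above had a vehicle peak at another position, and 28 of the 42 were called on HRG alone, 10 on both factors and 4 on EGF alone. As shares of the 86 sites these are 32.6%, 11.6% and 4.65%, close to the 31.7%, 9.69% and 6.75% of the sites near any gene. The EGF and HRG comparisons share the vehicle list. HNF4A, a receptor best known as a regulator of liver and gut genes, held the highest-ranked of these sites. Its intronic site 6.8 kb to 6.9 kb downstream of the first start was absent on vehicle and reached percentile 93.6 on EGF and 93.4 on HRG. A second HNF4A intron site, 18.1 kb from a start, was absent on vehicle and reached 73.7 and 74.6. Neither was called in any BT-474 list, and in the parental and resistant lines the first ranked at 19.0 and 66.1. The HNF4A site called in all lists, 8.0 kb to 8.5 kb before an internal start, ranked at 64.0, 65.2 and 76.7 on vehicle, EGF and HRG.

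NR1H3 gained a site 6.2 kb upstream on EGF at percentile 88.8, and the overlapping peak on HRG ranked at 71.8. RARG, the retinoic acid receptor γ, had only a distal peak on vehicle, at percentile 17.2 and on the start of MFSD5. Inside RARG, 1.4 kb downstream of a start, a peak appeared on EGF at 7.4, and an overlapping one on HRG, 0.7 kb from a start, at 85.0. RXRA, the main dimer partner, gained an intronic site 3.6 kb to 3.7 kb downstream of a start, at 9.4 on EGF and 70.6 on HRG. VDR gained a site 7.3 kb upstream on HRG at 83.6. At these gained sites RARG and RXRA ranked higher on HRG than on EGF, and NR1H3 lower.

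The opposite pattern was also present in SKBr3 cells. A vehicle peak with no peak on EGF and/or HRG was found for 6 receptors (15%, against 8.62% of all genes), namely PPARG, NR1H2, RXRG, NR2E3, PGR and NR4A2. NR4A2, the NURR1 receptor, had the highest vehicle rank of these, at percentile 71.7 in an intron 3.7 kb from a start, with no peak on EGF and 1 at another position on HRG, at 11.8. PGR, the progesterone receptor, had 1 weak upstream peak on vehicle and 1 on EGF at different positions, at 27.1 and 28.7, and none on HRG. PPARG, the adipogenic PPAR, was called on vehicle (strongest percentile 39.3) and EGF (20.2) but not on HRG. NR2E3 was called on vehicle (40.4) and HRG (39.7) but not on EGF, as was NR1H2 (LXRβ), at 31.8 and 61.3. RXRG was called on vehicle (21.2) and EGF (7.3) but not on HRG. Except for NR4A2, no vehicle peak of this class stood above 40.4. The class was not recounted under the alternative settings.

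**Figure D4:**
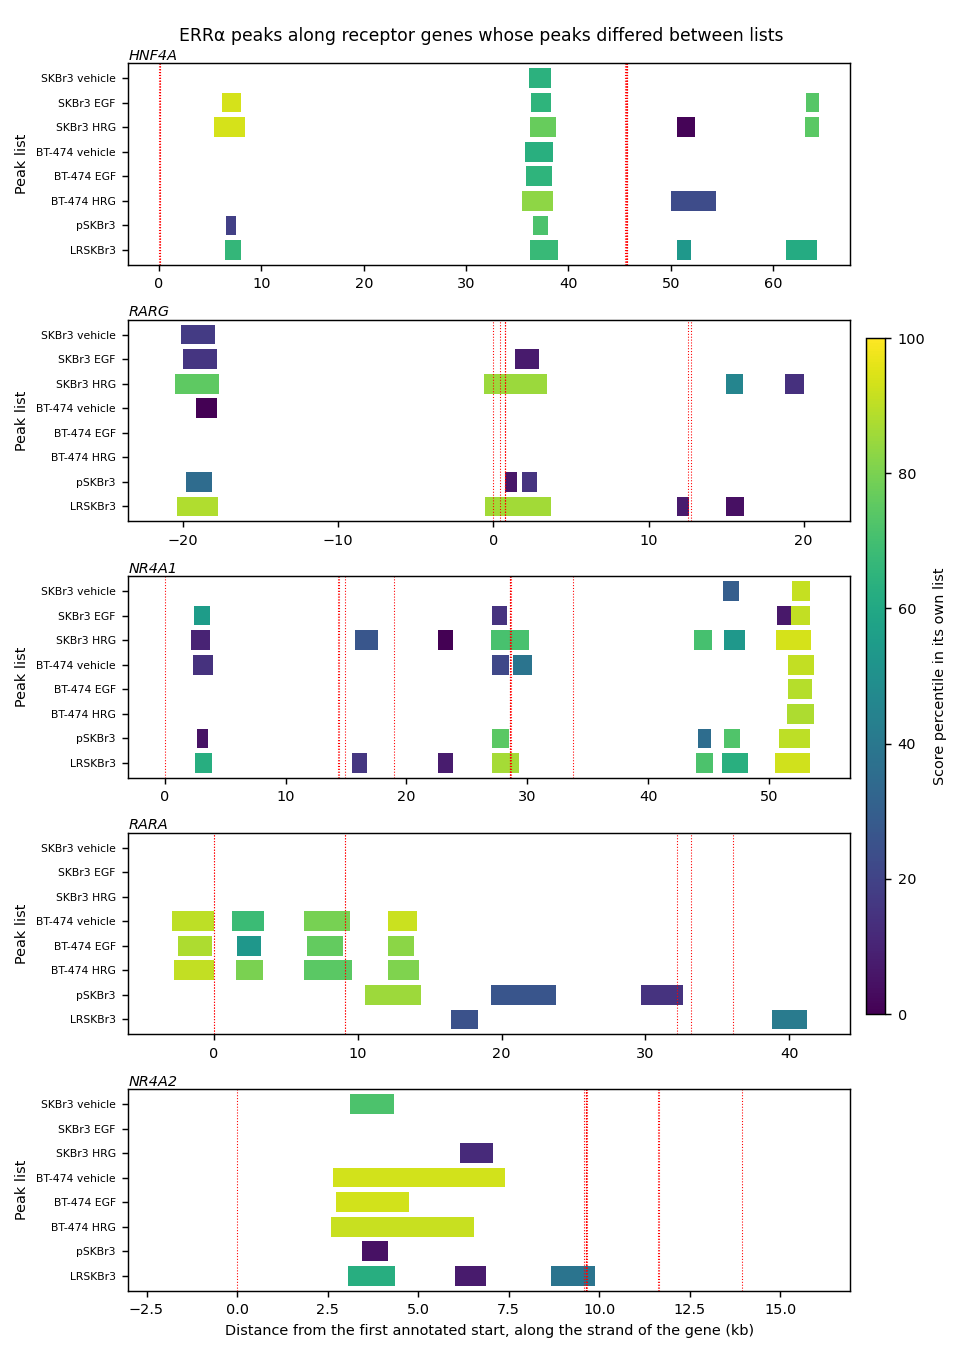
Peaks (bars) along HNF4A, RARG, NR4A1, RARA and NR4A2 in the 8 lists (y axis), in kb from the first annotated start along the strand of the gene (x axis), with dotted lines at annotated starts and colour for the score percentile within the list. HNF4A has 2 sites present on EGF and HRG and absent on vehicle in SKBr3, and RARA has 4 sites in each BT-474 list and none in the 3 starved SKBr3 lists.

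In BT-474 cells, 4 receptors without a vehicle peak were gained on growth factors (10%, against 9.87% of all genes), and all gains were weak. RORA, a receptor of the circadian and lipid network, was gained on both factors, with 2 intronic peaks on EGF (strongest percentile 26.5) and 3 on HRG (33.3). NR5A2 and PPARG were gained on HRG, at 29.8 and 27.8, the latter at a start. RORB was gained on EGF at 6.0. Of these, NR5A2 was also gained in SKBr3, likewise on HRG, but at a different position. None of the 4 was gained with peaks of a score of at least 100 alone, where the gained receptors were PPARA, NR2E1 and NR3C2 (7.5%, against 6.19% of all genes). With lists of equal size RORA was gained together with NR2E1 and NR3C2 (7.5% against 6.65%), and the other 3 were not.

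Vehicle peaks missing on EGF and/or HRG in BT-474 marked another 4 receptors (10%, against 15% of all genes), which were RARG, PPARA, NR3C2 and NR0B1. PPARA, NR3C2 and NR0B1 lacked a peak on EGF only, and RARG on both. At the level of sites, 17 of the 64 receptor sites in BT-474 (26.6%) were growth factor-induced, against 29.6% near any gene, and they lay near 11 receptors (27.5%, against 24.8% of all genes). The intronic NR3C2 peak stood at 0.5 in the vehicle list and at 64.7 in the HRG list, which hold 32259 and 41271 peaks, and was absent on EGF. RARG and NR4A1 went in opposite directions in the cell lines, with more peaks on both factors in SKBr3 and fewer on both in BT-474, a pattern found at 5% of the receptors and 2.3% of all genes.

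LRSKBr3 cells had a peak at 4 receptors that had none in pSKBr3 (10%, against 15.1% of all genes). THRA, the thyroid hormone receptor α, had its only peak of the 8 lists here, at percentile 76.5. The peak ran from -0.755 kb to 4.509 kb relative to the first start of THRA. Its centre lay inside the gene, 1.7 kb upstream of an internal start, where MED24 has a nearer start. THRA lies on chromosome 17 near the ERBB2 amplicon, and copy number was not measured. NR2E3, a photoreceptor-specific receptor, was bound in an intron 5.6 kb upstream of an internal start at percentile 70.1, against 40.4 on vehicle and 39.7 on HRG in starved SKBr3 cells. ESR2 had 2 peaks, at 25.5 and 43.6, of which the first overlapped its EGF-gained peak. NR3C2 had 2 peaks, at 0.1 and 29.3. The LRSKBr3 list holds 39777 peaks and the pSKBr3 list 22539. With lists of equal size THRA, NR2E3 and ESR2 were still gained (7.5%, against 5.64% of all genes), and at a score of at least 100 the number of gained receptors was 9 (22.5% against 15.6%). In both settings the share of receptors was above that of all genes, the opposite of the order with the full lists. It stayed below within 10 kb of a start (10% against 15.5%) and with 1 start per gene (12.5% against 15.7%). The same held with any base of the peak in range (10% against 15.1%). Where no gene had a nearer start it was 7.5% against 16.3%, and THRA was no longer gained.

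RXRG was the only receptor with a peak in pSKBr3 and none in LRSKBr3 (2.5%, against 1.95% of all genes), and that pSKBr3 peak was weak, at percentile 9.4. At a score of at least 100 RXRG was no longer lost and NR1H2 was (2.5% against 1.39%), and with lists of equal size 5 receptors were lost, RXRG among them (12.5% against 6.96%). Of the 87 receptor sites in these lines, 37 (42.5%) were called in LRSKBr3 alone, against 45% near any gene, and they lay near 20 receptors (50%, against 43.2% of all genes). Some receptors bound in both lines had unlike ranks in the pSKBr3 and LRSKBr3 lists, which differ in length. The strongest peak inside RARG stood at percentile 86.2 in LRSKBr3, and the 2 pSKBr3 peaks that it overlaps at 15.0 and 5.9. PPARD stood at 9.6 in pSKBr3 and 78.3 in LRSKBr3 at its promoter, 0.3 kb to 0.4 kb before a start. NR4A2 stood at 4.3 and 62.6 in its intron. NR1H2 went the other way at its promoter, with 62.9 in pSKBr3 and 33.0 in LRSKBr3.

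The 2 cell lines differed in which receptors were bound at all. Peaks in BT-474 lists only marked 6 receptors (15%, against 6.81% of all genes), namely RORA, RORB, HNF4G, NR2E1, NR2F2 and NR0B1. NR2F2 (COUP-TFII) was the strongest of these, with a peak at its start at percentile 77.4 on vehicle and 55.0 on HRG, and only a weak peak elsewhere in the gene on EGF (13.9). NR0B1 (DAX-1), a corepressor-like receptor without a DNA-binding domain, had vehicle peaks at 54.9 and 40.7 and 1 HRG peak at 49.8. The closest start to the NR2E1 peaks was that of OSTM1.

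Further receptors leaned to BT-474 without being confined to it. RARA, the retinoic acid receptor α, had the same 4 sites in each BT-474 list, with percentiles on vehicle of 68.2 to 92.1, on EGF of 52.9 to 87.5 and on HRG of 74.5 to 90.8. In starved SKBr3 cells RARA had no peak, in pSKBr3 it had 3 (14.7 to 85.2) and in LRSKBr3 2 (25.2 and 41.2), so the SKBr3-derived lists did not give the same call. RARA also lies near the ERBB2 amplicon. NR0B2 (SHP, a repressor of bile acid synthesis genes) was bound 0.3 kb to 0.4 kb before its start in BT-474 at 92.1, 79.8 and 84.5, in a window with an AP-1 word, whereas its pSKBr3 and LRSKBr3 peaks lay on the start of NUDC. NR4A2 had its strongest peaks in BT-474 (93.3, 93.3 and 91.5).

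Peaks in SKBr3-derived lists only marked 9 receptors, which were THRA, PPARD, NR1H2, RXRA, RXRG, NR2E3, NR2F1, ESR2 and PGR, or 22.5% against 23.9% of all genes. PPARD, the ubiquitous PPAR, and RXRA were called in each of the 5 SKBr3-derived lists, as was RARG, which brought the receptors bound in all of these lists to 17 (42.5%, against 37.8% of all genes). PPARD was bound at its promoter at percentiles of 52.9, 63.3 and 74.8 on vehicle, EGF and HRG. RXRA had its strongest peak at 49.3, 9.4 and 78.4, at a site 2.4 kb to 2.5 kb before a start except on EGF. The cell line cannot be told apart from the number of ChIP libraries behind a list, since BT-474 lists rest on 1 and SKBr3-derived lists on 2.

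By group, 2 of the 3 NR4A receptors, 2 of the 3 in the group of VDR, PXR and CAR, and 3 of the 7 NR2 orphans outside the HNF4 and RXR groups were bound in all lists, where 23.4% of all genes were. With 2 to 7 genes in a group, 1 gene moves these counts by a large share. Of the 5 thyroid hormone and retinoic acid receptors 2 were (THRB and RARB), and none of the 3 PPARs and neither of the 2 RORs. Among the 4 steroid receptors, NR3C1 was bound in all lists, whereas ESR2, NR3C2 and PGR were called in 2 to 4 lists with no percentile above 64.7. NR4A3 (NOR1), the third NR4A receptor, was bound 14.2 kb to 14.3 kb upstream in 6 lists, at 13.3 to 72.4, whereas its pSKBr3 peak and the stronger of its SKBr3 HRG peaks lay about 2.1 kb upstream.

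The response words were sparse at receptor sites. Within 100 bp of the centre of the strongest peak, the ERRE word was present at 1 of the 129 receptor sites (0.775%), the HNF4A intron, against 4.33% of the 35119 sites near any protein-coding gene. The relaxed ERRE was present at 5 (3.88% against 6.98%), near THRB, RARB, RORA, HNF4A and NR4A3, and an AP-1 word at 7 (5.43% against 6.77%). Centred on each of the 435 receptor peaks instead, the ERRE word was found in 6 peaks (1.38%, against 5.67% of the 115875 peaks near any gene), near HNF4A, NR3C1, NR5A1 and NR6A1. Among the 42 growth factor-induced sites of SKBr3, 4 held an AP-1 word (9.52% against 11.6% near any gene), which were 2 of HNF4A and 1 each of ESR2 and PPARA. None of the 27 receptor sites common to the 3 SKBr3 lists did, against 6.57% near any gene, and 1 of the 5 called on vehicle alone did (20% against 3.27%). In BT-474 the order was the other way, with 0 of 17 induced sites (against 8.23% near any gene) and 1 of 26 common sites (3.85% against 5.85%). None of the 6 BT-474 sites called on vehicle alone held an AP-1 word (0% against 3.26%). In the other pair of lists 1 of 37 LRSKBr3-only sites (2.7% against 5.44%) and 1 of 43 common sites (2.33% against 4.22%) held the word, as did 1 of 7 pSKBr3-only sites (14.3% against 3.26%). With so few words the shares move by several points with 1 site, and a missing word says only that these letters were not in the window.

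Receptors act with coregulators, and 7 of 16 coregulator genes (43.8%, against 23.4% of all genes) were bound in all lists. HDAC3, the deacetylase of corepressor complexes, NRIP1, a corepressor that restrains oxidative genes, and CREBBP, an acetyltransferase coactivator, were among these, and their strongest peaks stood at percentiles of at least 75.9, 64.6 and 64.1 in every list. The strongest HDAC3 and CREBBP peaks lay closer to starts of other genes. EP300 and MED1 had no peak (12.5% against 17.2%). NCOA3 and NCOR1 were gained on growth factors in SKBr3 (12.5% against 19.1%), GPS2 in BT-474 (6.25% against 9.87%) and NCOA1 in LRSKBr3 (6.25% against 15.1%), whereas NCOA2 and NSD1 were lost in LRSKBr3 (12.5% against 1.95%).

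Of 24 genes known to respond to receptor ligands, 12 (50%, against 23.4% of all genes) were bound in all lists. CPT1A, which admits fatty acids to mitochondria and is a PPAR target, had 6 to 8 peaks per list and a strongest percentile of at least 96.9. ABCG1, a sterol transporter induced by LXR, stood at 93.2 or higher, DUSP1, a phosphatase induced by glucocorticoids, at 81.2 or higher and KLF9, a glucocorticoid and thyroid hormone target, at 71.3 or higher. ABCA1 and CYP24A1, the classical targets of LXR and VDR, had no peak in any list (8.33% against 17.2%). PLIN2, CYP26B1, DIO1 and CYP2B6 were gained on growth factors in SKBr3 (16.7% against 19.1%), DIO1 in BT-474 (4.17% against 9.87%) and none in LRSKBr3 (0% against 15.1%).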

How the data were processed

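ERRα ChIP-seq and input libraries of the SKBr3, BT-474, pSKBr3 and LRSKBr3 lines were aligned by the authors to hg19 with BWA (version 0.5.9 in the submitters' processing notes), and MACS called the peaks (P value cutoff 1e-05). The authors deposited 8 peak lists, with replicate ChIPs combined, in which each peak has a position and a score, taken here as −10 log10 of its P value: the lowest score of each list, 50.0 or 50.01, lies at that of the cutoff. The 3 SKBr3 lists alone carry a header line that names FindPeaks. Scores were ranked only within a list, as percentiles with ties at their middle rank. The depth of the libraries is not given in the lists, so no interval was computed. Starts were those of protein-coding transcripts of the GENCODE annotation lifted to GRCh37. No peak lay past the end of a chromosome. Peaks overlapping by at least 1 bp were merged into sites. Words were sought within 100 bp of the centre of the strongest peak of a site. The lists of receptors, coregulators and ligand-responsive genes, the classes and the comparisons were chosen with earlier results of these data known. The rule for description with all values took up to 5 receptors of a class by highest score percentile. It covered the receptors gained on growth factors in SKBr3 or BT-474, gained or lost in LRSKBr3, and bound in all lists. Those bound in all lists were ranked by the lowest over the lists of their best percentile. The remaining classes were outside this rule. Up to 4 genes of each of the other gene lists were ranked and given by their lowest value over the 8 lists. Some genes of those lists are counted but not reported by name here. Further receptors were named after their values were seen. The assignment of peaks to genes and sites was tested on simulated data with well-separated genes and 1 start per gene. That simulation did not cover genes with several starts, close neighbouring genes or wide merged peaks. Alternatives concerned the score threshold, the distance, the starts, nearer genes, list size and the definitions of the classes. Python 3.11.15, numpy 2.4.6, pandas 2.3.3, pysam 0.24.0 and matplotlib 3.10.9 were used.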

Additional observations from a re-analysis of the deposited data

Results flagged for a closer look

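At RARG the number of peaks rose on both growth factors in SKBr3, by 1 on EGF and 3 on HRG against vehicle, and differed by -1 on EGF and -1 on HRG in BT-474. At NR4A1 it rose by 2 on EGF and 5 on HRG in SKBr3 and differed by -3 on EGF and -3 on HRG in BT-474. Both were singled out because the lists of one line moved one way and those of the other line the opposite way. The difference between the lines was not tested, since each condition has 1 list. The single BT-474 vehicle peak of RARG stood at percentile 0.2, and 3 of the 4 NR4A1 peaks on BT-474 vehicle stood between 14.1 and 38.3.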

How the results depend on the processing

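Of 46 alternative values, 25 stayed within 1.5 times the value reported and 21 did not. A count that stayed can still name other receptors, as it did for those gained in BT-474 and lost in LRSKBr3 at a score of at least 100. Each count is followed by the share of the receptors and then of all genes under the same setting. The number of receptors bound in all 8 lists was 9 within 10 kb of a start (22.5% against 15.8%). Receptors with no peak numbered 8 at a score of at least 100 (20% against 28.5%), 4 within 10 kb (10% against 26.8%), 5 with 1 start per gene (12.5% against 20.3%), 6 where no gene had a nearer start (15% against 27.4%) and 6 with lists of equal size (15% against 27.5%). Receptors gained on growth factors in SKBr3 numbered 3 at a score of at least 100 (7.5% against 17.8%), 10 with 1 start per gene (25% against 20.1%), 1 with lists of equal size (2.5% against 15.8%), 2 where both factors were required (5% against 5.84%) and 22 where any gained site counted (55% against 48.3%). In BT-474 they numbered 1 where both were required (2.5% against 1.57%) and 11 with any gained site (27.5% against 24.8%). Receptors gained in LRSKBr3 numbered 9 at a score of at least 100 (22.5% against 15.6%) and 20 with any gained site (50% against 43.2%). Those lost numbered 2 within 10 kb (5% against 1.83%), 2 with 1 start per gene (5% against 2.04%), 5 with lists of equal size (12.5% against 6.96%) and 5 with any lost site (12.5% against 6.74%). Sites with the ERRE word numbered 5 with the relaxed word (3.88% of receptor sites against 6.98% of sites near any gene) and 3 within 250 bp of the centre (2.33% against 7.03%). The causes of these moves were not tested. Leaving out a replicate could not be run. No paired analysis was possible because the replicate ChIPs were combined into 1 deposited list per condition. Depth is unknown, so a missing peak shows only that none passed the cutoff.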
